A study of Mus musculus with 35 samples.

Results

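The proteasome is the protease that removes ubiquitin-tagged proteins in every nucleated cell, and its genes were followed here through the lungs of mice that had breathed styrene. Genes were taken when their symbol in the array annotation began with Psma, Psmb, Psmc or Psmd and a digit, with the immunoproteasome genes Psmb8, Psmb9 and Psmb10 set apart. This gave 35 of the 17097 genes that had a probe set naming them alone. Membership was set by symbol and not by measured values, but the family was chosen with earlier results of these data known. They comprised 8 alpha subunits (Psma), 8 beta subunits (Psmb), 5 ATPases (Psmc), 13 non-ATPase genes (Psmd) and Psmc3ip. Psmc3ip matches the spelling but encodes a partner protein of meiotic recombination enzymes and is no subunit; it was kept in every count of 35 and is named apart. Psmc6 and Psmd10 were not analysed here.

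All animals were adult male wild-type C57Bl/6 mice, and RNA came from the whole lung. Each had a single 6 h inhalation exposure, to air alone (0 ppm) or to styrene at 1, 5, 10, 20, 40 or 120 ppm, and was killed on the following morning. Each of the 7 dose groups had 5 arrays (Affymetrix HT MG-430 PM, 35 in all), labelled as biological replicates, and the dose was the only labelled difference between them. An animal number is repeated in the titles (replicate 5 at 1 ppm and replicate 1 at 5 ppm), and the p-values measure the spread between arrays as labelled. Values are log2 probe set signals, and a difference of 1 is a doubling of signal; signals of different genes are not compared because each probe set has its own response. In RNA from a whole organ, fewer cells of a type and less RNA per cell cannot be told apart.

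The 26S proteasome has a barrel-shaped core, the 20S particle, built of rings of alpha and beta subunits. The outer alpha rings gate the entrance, and the inner beta rings carry the proteolytic sites on Psmb5, Psmb6 and Psmb7. At the ends of the barrel sits the 19S regulatory particle, whose ring of Psmc ATPases unfolds substrates while the Psmd subunits bind ubiquitin, remove it and hold the lid together. Subunits are needed in fixed proportions in the assembled particle. When proteasome activity falls short, the transcription factor NRF1 (gene Nfe2l1) is released from the endoplasmic reticulum and raises subunit genes together, and interferons replace the catalytic beta subunits with Psmb8, Psmb9 and Psmb10. NRF1 and its relative NRF2 bind antioxidant response elements, and the NF-Y factor binds CCAAT boxes, in promoters of many of these genes.

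Promoters of 5 members are shown first because their genes went in different directions in the doses described below. Psmb6 and Psmd9 had their highest signals at 120 ppm. Psmd12, Psmd14 and Psma4 had their highest means at 20 ppm and their lowest at 120 ppm, where Psma4 had the most negative difference of all members. Each line is the 250 bases before the annotated start, 5′ to 3′ in the direction of the gene, from RefSeq (GRCm38.p6); all 5 lie on the plus strand. Capitals mark the letters TGANNNNGC, a loose form of the antioxidant response element, or CCAAT, read on either strand.
Psmb6: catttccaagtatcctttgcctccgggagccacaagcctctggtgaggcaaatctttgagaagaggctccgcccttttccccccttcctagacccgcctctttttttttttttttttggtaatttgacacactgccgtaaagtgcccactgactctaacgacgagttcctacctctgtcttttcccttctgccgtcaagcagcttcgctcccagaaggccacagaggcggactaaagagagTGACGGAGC
Psmd9: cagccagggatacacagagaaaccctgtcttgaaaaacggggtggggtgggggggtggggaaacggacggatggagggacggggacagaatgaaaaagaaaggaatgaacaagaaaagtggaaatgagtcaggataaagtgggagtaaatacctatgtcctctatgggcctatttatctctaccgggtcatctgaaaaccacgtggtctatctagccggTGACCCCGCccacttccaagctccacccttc
Psmd12: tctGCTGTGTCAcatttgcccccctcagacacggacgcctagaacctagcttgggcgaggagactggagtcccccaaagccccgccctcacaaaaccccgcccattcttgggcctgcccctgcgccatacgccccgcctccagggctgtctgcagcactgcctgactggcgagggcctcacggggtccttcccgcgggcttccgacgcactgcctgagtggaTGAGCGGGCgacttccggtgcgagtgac
Psmd14: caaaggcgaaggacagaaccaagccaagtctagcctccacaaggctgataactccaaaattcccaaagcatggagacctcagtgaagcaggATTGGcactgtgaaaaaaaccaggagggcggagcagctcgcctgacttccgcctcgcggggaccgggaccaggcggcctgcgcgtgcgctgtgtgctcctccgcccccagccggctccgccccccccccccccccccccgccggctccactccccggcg
Psma4: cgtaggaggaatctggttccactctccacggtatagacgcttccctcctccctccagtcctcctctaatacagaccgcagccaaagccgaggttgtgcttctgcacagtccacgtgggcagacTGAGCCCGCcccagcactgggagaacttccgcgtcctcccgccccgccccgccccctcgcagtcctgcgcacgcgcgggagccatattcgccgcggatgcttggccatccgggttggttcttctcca
These stretches are chr11:70525107-70525356, chr5:123227940-123228189, chr11:107479278-107479527, chr2:61711444-61711693 and chr9:54950609-54950858 in the same order. The loose element lay 9 bases before the start of Psmb6, 31 before Psmd9 and 127 before Psma4, while the upstream stretch of Psmd14 held a CCAAT box only. Psmd12 held the element at both ends, and the distal copy was the only match among members to a stricter form (TGAC, any 3 bases and GCA, on either strand), which overlaps it.

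Of the 35 members, 28 had a promoter window of 300 bases (250 before and 50 after the start) in the RefSeq table. The loose element occurred in 17 of these 28 (60.7%) and in 47.2% of 13605 genes of the array with a window. The stricter form occurred in 1 of 28 (3.57%) against 3.34%, and CCAAT in 12 of 28 (42.9%) against 42.3%. The letters TGANNNNGC are therefore common in windows of this length, and a match is only a description of the sequence.

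Against background, 30 members lay above the highest nonspecific-hybridisation control of their array on all 35 arrays. Psma8, the alpha subunit of germ cells, and Psmb11, the beta subunit of the thymic cortex, lay above it on 0 of 35 arrays (signals of 3.02 to 4.05 and 3.00 to 4.13), so their values are not read as expression and no fold is given for them, although both stay in the counts of 35. Psmc3ip exceeded that control on 17 arrays and on none at 120 ppm. At 120 ppm Psmd1 exceeded it on 2 of 5 arrays and Psmd12 on 3 of 5, so their folds at that dose rest on signals near background.

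The 5 arrays at 120 ppm stood apart from the other 30 in measures that do not concern the proteasome. Their upper quartile of signals was 6.33 to 6.78 against 6.90 to 7.00, the spiked poly-A controls were at 7.93 to 8.81 against 6.10 to 7.06, and the highest nonspecific control was at 6.71 to 7.36 against 4.57 to 6.43. The 3′ minus 5′ difference of actin, a sign of RNA breakdown, was 0.12 to 0.19 at 120 ppm and 0.14 to 0.31 elsewhere. Signals of 4 alveolar type 2 markers averaged 12.44 to 12.91 on every array, and those of 4 club cell markers 12.49 to 12.72 up to 5 ppm, 11.82 to 12.26 from 10 to 40 ppm and 10.95 to 11.84 at 120 ppm.

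Over the doses from 0 to 40 ppm most proteasome genes had a small positive slope that passed the test. At 120 ppm, in the data as deposited, some rose and more fell. From 40 to 120 ppm 31.4% of the members rose and 57.1% fell, near the 35.4% and 51.5% of genes with mean signals in the range of the measurable subunits. With arrays centred on their median, 15 members rose and 15 fell at 120 ppm against air. In the slope over 0 to 40 ppm, fitted with limma to the 30 arrays on log2 of the dose plus 1 ppm, 23 of 35 members rose and none fell. Of all 17097 genes 13.2% rose and 12.9% fell (26% in either direction). Of 4701 genes with mean signals in the range of the measurable subunits (7.54 to 11.22) 21.3% rose and 19% fell. The median slope of the members was 0.047 log2 per doubling of that scale, that of all genes was 0, and 34 of 35 members had a positive slope. By class, 3 of 8 alpha, 6 of 8 beta, 3 of 5 ATPase and 10 of 13 non-ATPase genes rose, and so did Psmc3ip. The group at 1 ppm bears on this count: without it 15 members rose and none fell. On linear dose 18 members rose, and with 120 ppm included 15 rose and 13 fell. Shares of all genes in these other fits are not given here. The slope was stopped at 40 ppm because 120 ppm stood apart in earlier results of these data.

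**Figure D1:**
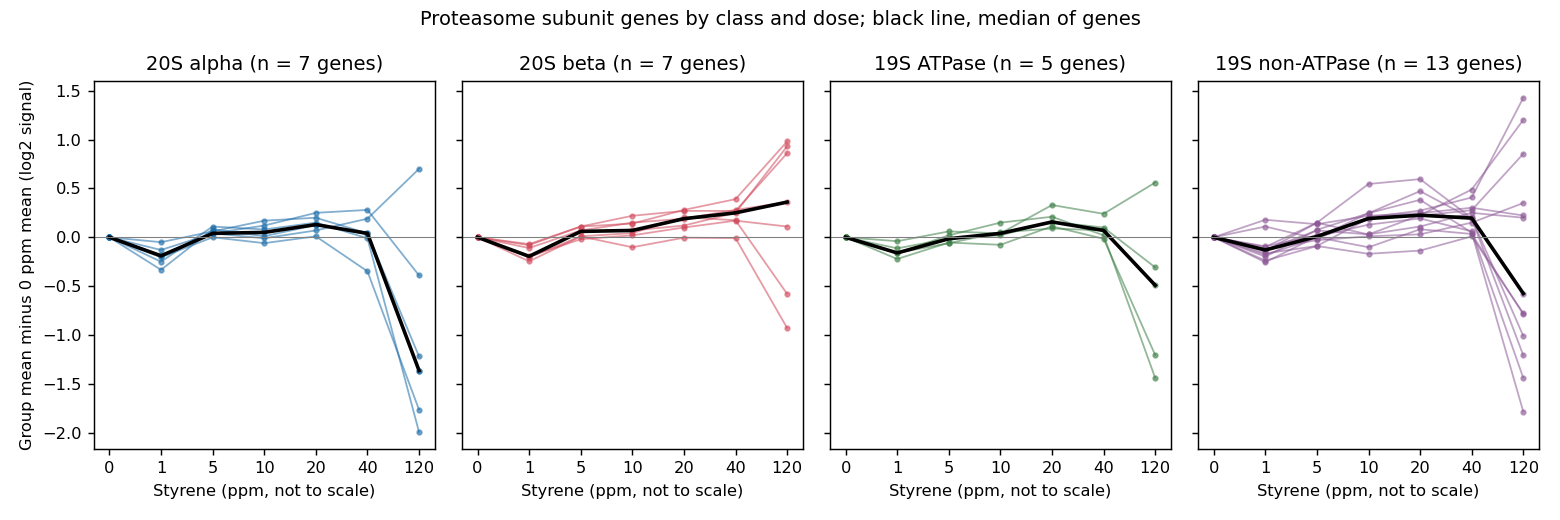
Each thin line is 1 gene, and its points are the mean log2 signal of 5 arrays minus the mean at 0 ppm, plotted against the styrene dose in ppm (equal steps, not to scale) for the 32 subunit genes other than Psma8, Psmb11 and Psmc3ip; the thick black line is the median of the class. The lines stay within 0.6 of air up to 40 ppm and spread from -1.99 to 1.43 at 120 ppm, where alpha and ATPase genes are mostly below 0 and beta genes mostly above it.

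Every comparison with air used the same 5 control arrays. At 1 ppm no member passed the test (limma, 0 of 35; 0% of all genes rose and 0% fell), and 1 member had an unadjusted p under 0.05 upward and 10 downward. Of all genes 6.96% had such a p in either direction. The mean was below that in air for 33 of 35 members, with a median of -0.16 against -0.014 over all genes, of which 45.3% were positive. Averaged over the 32 subunits, the 5 arrays at 1 ppm lay between 9.56 and 9.73, those in air between 9.73 and 9.82 and those at 5 ppm between 9.79 and 9.85. The most negative difference was that of Psma5, an alpha ring subunit, at -0.33 (SE 0.10, limma adjusted p = 0.447). At 5 ppm no member passed (limma, 0 of 35), while 1.13% of all genes rose and 0.0234% fell, 1.16% in all. No member had an unadjusted p under 0.05, against 6.45% of all genes, and the median difference of the members was 0.040.

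At 10 ppm 3 members rose and none fell (limma; 5.17% of all genes rose and 6.62% fell, 11.8% in all; 8.91% and 11% of genes as bright as the subunits), with a median over the 35 of 0.055 against -0.024 over all genes. They were Psmd14, the deubiquitinase that strips ubiquitin chains from substrates at the mouth of the particle, Psmb5, which carries the chymotrypsin-like site, and Psmd11, a scaffold of the lid. Psmd14 differed from air by 0.54 (SE 0.14, limma adjusted p = 0.00563), Psmb5 by 0.23 (SE 0.076, limma adjusted p = 0.0492) and Psmd11 by 0.22 (SE 0.073, limma adjusted p = 0.0441). The call for Psmd14 held without any single array. Those for Psmb5 and Psmd11 were each lost in 9 of the 10 fits that left out 1 array, with differences of 0.19 to 0.26 and 0.19 to 0.24. Leaving out 1 array of either group gave 1 to 2 rising members.

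At 20 ppm 8 members rose and none fell (limma; 6.45% of all genes rose and 6.74% fell, 13.2% in all; 11% and 11.5% of genes as bright). The median difference was 0.19 against -0.016 over all genes, and 33 of 35 members were positive. The 8 were Psma3 among alpha subunits, Psmb4, Psmb5 and Psmb6 among beta subunits, the ATPase Psmc4, and Psmd11, Psmd12 and Psmd14 of the 19S lid. Their differences ran from 0.19 for Psmb4 to 0.59 for Psmd14. Calls for Psmb4 (lost in 6 of 10 fits without 1 array) and Psmc4 (lost in 7 of 10) lay nearest the threshold, and without replicate 5 at 0 ppm 5 members rose.

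At 40 ppm 9 members rose and 1 fell (limma; 7.69% of all genes rose and 5.04% fell, 12.7% in all; 13.8% and 7.68% of genes as bright), with a median difference of 0.17. The rising genes were Psma3, the beta subunits Psmb3, Psmb4, Psmb5 and Psmb6, and Psmd3, Psmd8, Psmd9 and Psmd11. The Psmb3 call was lost in 5 of 10 fits without 1 array (0.22 to 0.27) and with arrays centred on their median (0.24, limma adjusted p = 0.133). The gene that fell was Psma1, an alpha ring subunit, and its 5 arrays were not alike. Psma1 had signals of 10.07, 10.03, 10.10, 10.12 and 9.97 at 0 ppm, 10.01, 10.16, 10.11, 10.04 and 10.06 at 20 ppm and 9.90, 10.11, 9.90, 9.16 and 9.49 at 40 ppm (replicates 1 to 5). Replicates 4 and 5 at 40 ppm were far below every array in air, while replicate 2 lay within them. The difference was -0.35 (SE 0.11, limma adjusted p = 0.0394), and without those 2 arrays it was -0.088 (adjusted p = 0.694). The call was also lost without any 1 of replicates 1, 2, 3 and 4 at 0 ppm, and without either of the low arrays alone (-0.21 and -0.29). The same 2 arrays were the lowest of their group for Psma2, Psma4 and Psmc2, and without them 8 members rose at 40 ppm, none fell, and 26 rose in the slope.

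Differences between 40 and 20 ppm did not pass the test for any member (limma, 0 of 35; 0% of all genes rose and 0% fell); at an unadjusted p under 0.05, 1 member was higher and 4 were lower. Of all genes 11.7% had such a p in either direction. Psmd14 stood at -0.40 (SE 0.14, limma adjusted p = 0.277) and Psmd9 at 0.26 (SE 0.11, limma adjusted p = 0.339).

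In the beta ring 6 of 8 genes rose in the slope, and Psmb6, which carries the caspase-like site, had the smallest p of all members there. Psmb6 had signals of 10.40, 10.23, 10.24, 10.14 and 10.10 at 0 ppm, 10.09, 10.07, 10.28, 10.20 and 10.04 at 1 ppm and 10.35, 10.38, 10.33, 10.39 and 10.21 at 5 ppm. It read 10.31, 10.30, 10.44, 10.45 and 10.32 at 10 ppm, 10.48, 10.45, 10.49, 10.48 and 10.58 at 20 ppm and 10.60, 10.61, 10.62, 10.73 and 10.47 at 40 ppm. At 120 ppm the values were 11.26, 11.26, 11.19, 11.20 and 11.10. From 20 ppm on, every array lay above all 5 in air, and at 120 ppm every array lay above all 30 others. Psmb6 differed from air by 0.27 (SE 0.066, limma adjusted p = 0.00402) at 20 ppm, 0.38 (SE 0.066, limma adjusted p = 0.000103) at 40 ppm and 0.98 (SE 0.066, limma adjusted p = 1.34e-14) at 120 ppm, the last a 1.97-fold signal. Its slope was 0.080 log2 per doubling (SE 0.011, limma adjusted p = 1.18e-06), and none of the alternative settings run on these comparisons changed a call or a direction.

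The other catalytic subunits parted company at the top dose. Psmb5 had signals of 10.45, 10.34, 10.36, 10.26 and 10.18 at 0 ppm, 10.58, 10.45, 10.62, 10.65 and 10.64 at 20 ppm, 10.52, 10.60, 10.74, 10.64 and 10.44 at 40 ppm and 11.14, 11.25, 11.14, 11.26 and 11.13 at 120 ppm. Psmb7, which carries the trypsin-like site, had 9.73, 9.65, 9.57, 9.52 and 9.61 at 0 ppm, 9.88, 9.85, 9.82, 9.81 and 9.75 at 20 ppm, 9.91, 9.81, 9.98, 9.56 and 9.68 at 40 ppm and 9.13, 9.09, 9.02, 8.55 and 9.39 at 120 ppm. At 120 ppm all 5 Psmb5 arrays were above every array at 0 and 40 ppm, and all 5 Psmb7 arrays were below them. From 40 to 120 ppm Psmb5 rose by 0.60 (SE 0.076, limma adjusted p = 2.48e-08), a 1.51-fold change, and Psmb7 fell by 0.75 (SE 0.11, limma adjusted p = 2.59e-07), a signal 1.69-fold lower. Over 0 to 40 ppm both rose, with slopes of 0.067 (adjusted p = 8.08e-05) and 0.057 (adjusted p = 0.00501) in limma. Psmb7 at 20 and 40 ppm was 0.21 and 0.17 from air and passed at neither dose (limma adjusted p = 0.252 and 0.365). At 120 ppm it was -0.58 from air (limma adjusted p = 1.87e-05), and -0.185 with arrays centred on their median, where the call was lost (adjusted p = 0.0918).

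Among the noncatalytic beta subunits, Psmb3 rose and Psmb1 fell at 120 ppm. Psmb3 had signals of 10.58, 10.63, 10.46, 10.58 and 10.48 at 0 ppm, 10.69, 10.88, 10.80, 10.88 and 10.69 at 40 ppm and 11.53, 11.52, 11.38, 11.61 and 11.32 at 120 ppm. Psmb1 had 10.16, 10.04, 10.00, 9.92 and 9.82 at 0 ppm, 10.14, 10.02, 10.13, 9.74 and 9.86 at 40 ppm and 9.07, 8.91, 9.21, 8.83 and 9.27 at 120 ppm. Neither gene's arrays at 120 ppm overlapped those of the other 2 groups. From 40 to 120 ppm Psmb3 changed by 0.68 (SE 0.076, limma adjusted p = 1.27e-09) and Psmb1 by -0.92 (SE 0.096, limma adjusted p = 3.3e-10). Psmb4 rose against air at 20 ppm (0.19), 40 ppm (0.28) and 120 ppm (0.36), while its step from 40 to 120 ppm was 0.079 (SE 0.063, limma adjusted p = 0.263). That step was 0.48 with arrays centred on their median and 0.30 with cyclic loess, both called higher. Psmb2 did not pass between 0 and 120 ppm, at 0.11 (SE 0.088, limma adjusted p = 0.238), and this depended on scaling. It was called higher with centred arrays (0.51) and with cyclic loess (0.345).

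Psmb4 had signals of 11.20, 11.14, 11.05, 10.99 and 11.02 at 0 ppm, 11.37, 11.23, 11.27, 11.19 and 11.32 at 20 ppm, 11.37, 11.31, 11.47, 11.37 and 11.29 at 40 ppm and 11.47, 11.46, 11.52, 11.41 and 11.34 at 120 ppm. Psmb2 had 10.36, 10.15, 10.13, 10.06 and 10.03 at 0 ppm, 10.27, 10.13, 10.27, 10.24 and 10.34 at 20 ppm, 10.33, 10.27, 10.45, 10.30 and 10.24 at 40 ppm and 10.36, 10.28, 10.30, 10.17 and 10.19 at 120 ppm. Psmb4 arrays at 40 and 120 ppm were all above those in air and overlapped each other, and the 4 groups of Psmb2 arrays overlapped throughout. Psmb2 rose in the slope to 40 ppm (0.047 per doubling, limma adjusted p = 0.0158), a call lost without the 1 ppm group (0.031, adjusted p = 0.118).

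In the alpha ring, which gates the core, the rise below 120 ppm was led by Psma3 and the drop at 120 ppm by Psma4. Psma3 had signals of 10.80, 10.93, 10.91, 11.00 and 10.99 at 0 ppm, 11.16, 11.15, 11.11, 11.22 and 11.25 at 20 ppm, 11.13, 11.23, 11.12, 11.34 and 11.23 at 40 ppm and 10.44, 10.43, 10.54, 10.66 and 10.62 at 120 ppm. Every array at 20 and 40 ppm was above every array in air, and every array at 120 ppm was below them. Psma3 differed from air by 0.25 (SE 0.064, limma adjusted p = 0.00621) at 20 ppm and 0.28 (SE 0.064, limma adjusted p = 0.00215) at 40 ppm, and from 40 to 120 ppm by -0.67 (SE 0.064, limma adjusted p = 4.15e-11). At 120 ppm against air it was -0.39 (SE 0.064, limma adjusted p = 1.96e-06); with each array centred on its median this became 0.004 and was lost.

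Psma4 had signals of 10.38, 10.39, 10.46, 10.49 and 10.42 at 0 ppm, 10.15, 10.15, 10.19, 10.19 and 10.20 at 1 ppm and 10.62, 10.51, 10.56, 10.54 and 10.70 at 20 ppm. It had 10.63, 10.58, 10.57, 10.00 and 10.31 at 40 ppm and 8.15, 8.36, 8.40, 8.50 and 8.77 at 120 ppm. The 1 ppm arrays were all below those in air, replicates 4 and 5 at 40 ppm were below the rest of their group, and the 120 ppm arrays were lower than any other by over 1 log2 unit. Psma4 fell by 1.98 (SE 0.098, limma adjusted p = 8.82e-17) from 40 to 120 ppm, a 3.94-fold lower signal, and its slope up to 40 ppm did not pass (0.034, limma adjusted p = 0.146). Psma1, Psma2, Psma5 and Psma6 fell at 120 ppm as well, by 1.42, 1.40, 1.41 and 1.26 from 40 ppm. Psma7 went the other way: its signals were 10.54, 10.34, 10.30, 10.31 and 10.25 at 0 ppm, 10.50, 10.49, 10.60, 10.59 and 10.51 at 40 ppm and 11.17, 11.10, 11.02, 11.03 and 10.93 at 120 ppm. Apart from the high replicate 1 in air the 3 groups of Psma7 arrays did not overlap. Psma7 rose by 0.51 (SE 0.069, limma adjusted p = 7.12e-08) from 40 to 120 ppm. The second bright probe set of Psma7 gave 0.51 for the same step.

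The fall of the alpha subunits from 40 to 120 ppm was large beside the spread of their arrays. Psma2 had signals of 11.05, 11.10, 11.00, 11.06 and 10.93 at 0 ppm, 11.21, 11.16, 11.17, 10.80 and 10.98 at 40 ppm and 9.42, 9.49, 9.72, 9.85 and 9.84 at 120 ppm. Psma5 had 9.80, 9.80, 9.79, 9.75 and 9.65 at 0 ppm, 10.04, 10.01, 10.01, 9.42 and 9.54 at 40 ppm and 8.34, 8.28, 8.41, 8.18 and 8.75 at 120 ppm. Psma6 had 10.50, 10.58, 10.56, 10.42 and 10.39 at 0 ppm, 10.69, 10.73, 10.64, 10.19 and 10.40 at 40 ppm and 9.16, 9.14, 9.30, 9.44 and 9.32 at 120 ppm. For all 3 the arrays at 120 ppm were below every array at 0 and 40 ppm, and replicates 4 and 5 were the lowest of the 40 ppm arrays. Psma2 rose in the slope to 40 ppm (0.032, limma adjusted p = 0.0493), a call lost in 25 of 30 fits without 1 array, and Psma5 (0.044, adjusted p = 0.0805) and Psma6 (0.029, adjusted p = 0.116) did not pass.

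**Figure D2:**
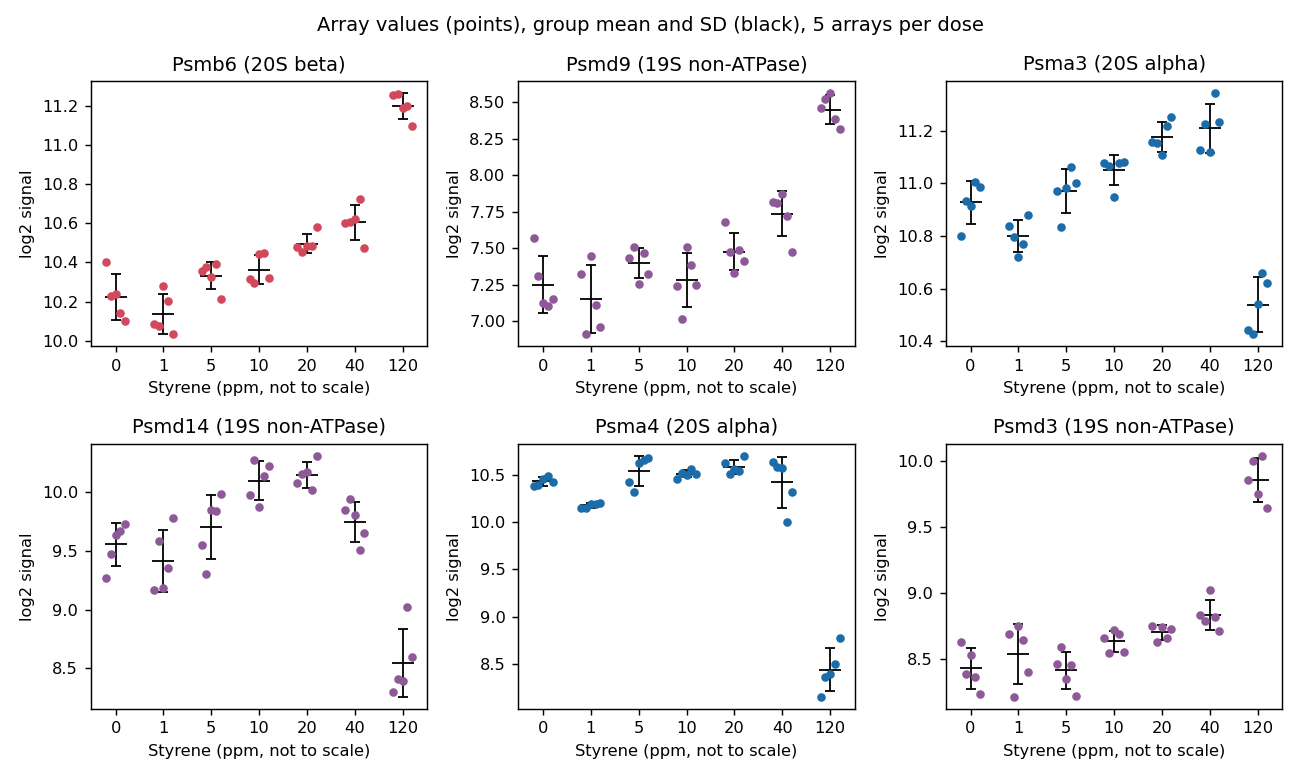
Log2 signal of 6 genes on every array against styrene dose in ppm (equal steps, not to scale); coloured points are arrays, black bars the mean and SD of the 5 arrays per dose. Psmb6, Psmd9 and Psmd3 are highest at 120 ppm, Psma3, Psmd14 and Psma4 lowest there, and the Psmd14 points are highest at 10 and 20 ppm.

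The ATPase ring, which unfolds substrates and threads them into the core, had 1 member called at 20 ppm, none at 40 ppm, and all 5 at 120 ppm, where 74.8% of all genes were called against air. With centred arrays Psmc3 (-0.096) and Psmc5 (0.086) were not called there. Psmc4 had signals of 10.27, 10.26, 10.13, 10.18 and 9.96 at 0 ppm, 10.37, 10.63, 10.35, 10.80 and 10.30 at 20 ppm, 10.36, 10.48, 10.44, 10.49 and 10.22 at 40 ppm and 10.69, 10.56, 10.89, 10.66 and 10.81 at 120 ppm. Psmc2 had 10.08, 10.11, 10.15, 10.13 and 10.10 at 0 ppm, 10.30, 10.28, 10.33, 10.32 and 10.35 at 20 ppm, 10.20, 10.30, 10.26, 9.83 and 10.06 at 40 ppm and 8.51, 8.46, 8.70, 8.61 and 9.08 at 120 ppm. All 5 Psmc4 arrays at 20 ppm exceeded those in air, with replicates 2 and 4 well above the others, and the 5 Psmc2 arrays at 120 ppm were below all others shown. Psmc4 differed from air by 0.33 (SE 0.11, limma adjusted p = 0.0459) at 20 ppm and, from 40 to 120 ppm, by 0.33 (SE 0.11, limma adjusted p = 0.0102). A second bright probe set of Psmc4 gave 0.217 at 20 ppm (limma adjusted p = 0.0986) and 0.40 at 40 ppm (limma adjusted p = 0.00108). Whether Psmc4 is called at 20 or at 40 ppm therefore depends on the probe set. Psmc2 fell by 1.46 (SE 0.090, limma adjusted p = 5.75e-15) from 40 to 120 ppm. Psmc1, Psmc3 and Psmc5 fell from 40 to 120 ppm by 1.19, 0.56 and 0.41 (limma adjusted p = 4.06e-14, 2.79e-06 and 0.00013). Centring the arrays gave -0.167 for Psmc3 and -0.012 for Psmc5, neither called. Their slopes below 120 ppm were small, 0.033 for Psmc3 and 0.035 for Psmc5, and lost the call in fits without some single arrays.

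Psmc1 had signals of 9.65, 9.65, 9.61, 9.72 and 9.67 at 0 ppm, 9.69, 9.64, 9.73, 9.60 and 9.58 at 40 ppm and 8.43, 8.30, 8.51, 8.16 and 8.89 at 120 ppm. Psmc3 had 10.22, 10.25, 10.22, 10.20 and 10.05 at 0 ppm, 10.32, 10.37, 10.34, 10.12 and 10.16 at 40 ppm and 9.83, 9.68, 9.63, 9.29 and 10.07 at 120 ppm. Psmc5 had 9.85, 9.92, 9.98, 9.84 and 9.77 at 0 ppm, 10.02, 10.05, 10.06, 9.89 and 9.85 at 40 ppm and 9.63, 9.54, 9.57, 9.28 and 9.81 at 120 ppm. The Psmc1 arrays at 120 ppm were all below the other groups, whereas replicate 5 of Psmc3 and Psmc5 at 120 ppm reached into the range of air.

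The 19S non-ATPase genes held the widest range of responses. Psmd14 and another lid subunit, Psmd12, had their highest means at 20 ppm, and both were singled out after their values were seen. A highest mean at 20 ppm was not particular to them: Psma4, Psmb7, Psmc2 and Psmd6, among others, had it too. Psmd14 had signals of 9.27, 9.47, 9.64, 9.67 and 9.73 at 0 ppm, 9.55, 9.30, 9.85, 9.84 and 9.98 at 5 ppm and 9.98, 10.27, 9.88, 10.14 and 10.23 at 10 ppm. It had 10.08, 10.16, 10.17, 10.02 and 10.31 at 20 ppm, 9.85, 9.94, 9.81, 9.51 and 9.66 at 40 ppm and 8.30, 8.41, 8.39, 9.02 and 8.60 at 120 ppm. All arrays at 10 and 20 ppm were above every array in air, those at 40 ppm overlapped air, and those at 120 ppm were below it. The difference from air was 0.59 (SE 0.14, limma adjusted p = 0.00223) at 20 ppm, a 1.51-fold signal, 0.20 (SE 0.14, limma adjusted p = 0.427) at 40 ppm and -1.01 (SE 0.14, limma adjusted p = 4.98e-08) at 120 ppm. Psmd12 had 8.32, 8.40, 8.63, 8.57 and 8.69 at 0 ppm, 8.88, 8.95, 9.03, 8.96 and 9.16 at 20 ppm, 8.71, 8.90, 8.75, 8.49 and 8.71 at 40 ppm and 7.21, 7.47, 7.02, 7.27 and 7.60 at 120 ppm. All 5 Psmd12 arrays at 20 ppm were above those in air, and its differences were 0.47 (SE 0.12, limma adjusted p = 0.0044) at 20 ppm and 0.19 (SE 0.12, limma adjusted p = 0.343) at 40 ppm. Since neither gene passed between 20 and 40 ppm, the lower signals at 40 ppm are not shown to differ from those at 20 ppm.

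Psmd9, a chaperone that helps assemble the ATPase ring, and Psmd3, a lid subunit, rose at 40 ppm and again at 120 ppm. Psmd9 had signals of 7.57, 7.31, 7.12, 7.10 and 7.15 at 0 ppm, 7.68, 7.48, 7.33, 7.48 and 7.41 at 20 ppm, 7.82, 7.81, 7.87, 7.72 and 7.47 at 40 ppm and 8.46, 8.53, 8.56, 8.39 and 8.32 at 120 ppm. Psmd3 had 8.63, 8.39, 8.53, 8.37 and 8.23 at 0 ppm, 8.75, 8.63, 8.74, 8.66 and 8.73 at 20 ppm, 8.83, 8.79, 9.02, 8.82 and 8.71 at 40 ppm and 9.85, 10.00, 9.75, 10.04 and 9.64 at 120 ppm. For Psmd9, 4 of 5 arrays at 40 ppm were above all in air and replicate 5 was not; for Psmd3 all 5 were, and at 120 ppm both genes lay clear of every other group. Psmd9 rose by 0.49 (SE 0.11, limma adjusted p = 0.00144) at 40 ppm and by 0.71 (SE 0.11, limma adjusted p = 3.97e-07) from 40 to 120 ppm, and averaging it with 2 further probe sets, which exceeded the nonspecific controls on 1 and 0 of 35 arrays, gave 0.106 at 40 ppm (adjusted p = 0.406). Psmd3 rose by 0.41 (SE 0.094, limma adjusted p = 0.00284) at 40 ppm and by 1.02 (SE 0.094, limma adjusted p = 2.54e-11) from 40 to 120 ppm, a 2.03-fold change and the highest of the 35 members.

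Psmd1 and Psmd2 are the large scaffolds of the 19S base that receive ubiquitin-binding proteins. Psmd1 had signals of 8.48, 8.85, 8.89, 9.06 and 9.20 at 0 ppm, 8.76, 9.13, 8.81, 8.89 and 9.14 at 40 ppm and 6.98, 6.89, 6.75, 7.34 and 7.60 at 120 ppm. Arrays at 0 and 40 ppm overlapped widely, and all arrays at 120 ppm were below both. Psmd1 fell by 1.83 (SE 0.17, limma adjusted p = 2.58e-11) from 40 to 120 ppm, and Psmd2 by -0.78 (SE 0.083, limma adjusted p = 5.32e-10) after a rising slope below 120 ppm (0.058, adjusted p = 5.37e-05). Psmd11 rose at 10, 20 and 40 ppm, by 0.22, 0.25 and 0.30, and from 40 to 120 ppm stood at -0.079 (SE 0.073, limma adjusted p = 0.335). That step depended on the setting: it was 0.32 with centred arrays and 0.18 with cyclic loess, both called higher, and -0.155 and called lower without replicate 5 at 120 ppm (adjusted p = 0.0316). Its second bright probe set gave 0.28 at 40 ppm but -0.14 at 120 ppm against air, where the first gave 0.22. Psmd13 and Psmd4, a ubiquitin receptor, rose from 40 to 120 ppm by 0.58 and 0.20, and Psmd7 (the partner of Psmd14) and Psmd5 (another assembly chaperone) fell by 0.82 and 0.79.

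Psmd13 and Psmd6 are lid subunits whose signals separated at 120 ppm. Psmd13 had signals of 8.36, 8.23, 8.18, 8.06 and 8.04 at 0 ppm, 8.36, 8.10, 8.46, 8.52 and 8.54 at 20 ppm, 8.52, 8.50, 8.55, 8.47 and 8.22 at 40 ppm and 9.17, 9.04, 9.09, 8.83 and 9.02 at 120 ppm. Psmd6 had 9.39, 9.56, 9.61, 9.67 and 9.68 at 0 ppm, 9.74, 9.74, 9.77, 9.69 and 9.94 at 20 ppm, 9.68, 9.69, 9.60, 9.50 and 9.73 at 40 ppm and 8.02, 8.13, 7.84, 8.42 and 8.31 at 120 ppm. All Psmd13 arrays at 120 ppm were above, and all Psmd6 arrays below, every array of the other 3 groups. Against air Psmd13 rose by 0.85 (SE 0.096, limma adjusted p = 1.41e-09) and Psmd6 fell by 1.44 (SE 0.093, limma adjusted p = 5.71e-15) at 120 ppm, and a second probe set of Psmd6 gave -1.49. Both rose in the slope to 40 ppm, by 0.079 and 0.049 per doubling (limma adjusted p = 0.000843 and 0.0193). The call for Psmd6 was lost without the 1 ppm group (0.024, adjusted p = 0.25) and on linear dose (adjusted p = 0.123).

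Psmd8, another lid subunit, had signals of 10.55, 10.35, 10.30, 10.21 and 10.27 at 0 ppm, 10.61, 10.53, 10.62, 10.59 and 10.57 at 40 ppm and 10.64, 10.54, 10.59, 10.27 and 10.61 at 120 ppm. Psmd2 had 9.81, 9.82, 9.74, 9.76 and 9.69 at 0 ppm, 10.03, 9.91, 10.02, 9.95 and 10.07 at 20 ppm, 10.00, 9.96, 10.06, 9.96 and 9.86 at 40 ppm and 9.22, 9.11, 9.20, 8.82 and 9.58 at 120 ppm. The 3 groups of Psmd8 arrays overlapped, whereas the Psmd2 arrays at 20 and 40 ppm were all above air and those at 120 ppm all below it. Psmd8 differed from air by 0.25 (SE 0.075, limma adjusted p = 0.0226) at 40 ppm and by 0.19 (SE 0.075, limma adjusted p = 0.0209) at 120 ppm. The first call was lost in 4 of 10 fits without 1 array and the second without replicate 4 at 0 ppm or replicate 1 at 120 ppm. Psmd2 differed by 0.23 (SE 0.083, limma adjusted p = 0.0612) at 20 ppm and 0.21 (SE 0.083, limma adjusted p = 0.108) at 40 ppm and passed at neither dose. This depended on the setting: Psmd2 was called higher at both doses with cyclic loess (0.246 and 0.194), and only at 20 ppm with centred arrays (0.226). Psmd7 differed from air by -0.79 (SE 0.13, limma adjusted p = 1.95e-06) at 120 ppm. Its mean with 2 further probe sets, which exceeded the nonspecific controls on 1 and 0 of 35 arrays, gave -0.032 (limma adjusted p = 0.689).

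Psmd11 had signals of 9.14, 9.33, 9.31, 9.26 and 9.37 at 0 ppm, 9.46, 9.48, 9.49, 9.52 and 9.56 at 10 ppm, 9.48, 9.55, 9.56, 9.76 and 9.56 at 40 ppm and 9.50, 9.44, 9.38, 9.38 and 9.81 at 120 ppm. Psmd4 had 10.65, 10.65, 10.58, 10.62 and 10.61 at 0 ppm, 10.73, 10.79, 10.82, 10.82 and 10.71 at 40 ppm and 11.10, 11.01, 10.98, 10.74 and 11.02 at 120 ppm. Psmd7 had 8.86, 8.88, 8.77, 8.74 and 8.75 at 0 ppm, 8.86, 8.92, 8.96, 8.83 and 8.60 at 40 ppm and between 7.26 and 8.62 at 120 ppm. Psmd11 arrays at 10, 40 and 120 ppm and Psmd4 arrays at 40 and 120 ppm were all above air, with replicate 5 of Psmd11 the highest at 120 ppm. Psmd5 had a slope of 5e-04 to 40 ppm, and its arrays lay between 7.21 and 8.56 at 120 ppm against 9.02, 8.85, 8.74, 8.65 and 8.46 in air.

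Counted over all classes, from 40 to 120 ppm 11 of 35 members rose and 20 fell (limma; 39.8% of all genes rose and 31.1% fell, 70.9% in all), with a median of -0.67 against 0.14 over all genes. Over the 4701 genes as bright as the subunits the median was -0.36, and 35.4% rose and 51.5% fell. Against air 14 rose and 20 fell (42.9% of all genes rose and 31.9% fell, 74.8% in all), with a median of -0.49 against 0.16 over all genes. Over the genes as bright the median was -0.33, and 37.5% rose and 51% fell. From 40 to 120 ppm 2 alpha genes rose and 6 fell (median -1.33), 4 beta genes rose and 2 fell (0.17), 1 ATPase gene rose and 4 fell (-0.56), and 4 non-ATPase genes rose and 7 fell (-0.78). The rising genes include Psma8 and Psmb11, whose signals lay below the nonspecific controls; those controls were higher at 120 ppm too, and their part in these 2 calls was not tested.

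How the 120 ppm arrays are scaled moves these counts. Centring each array on its median shifted the median of all genes at 120 ppm against air by 0.39, to 0.55, and gave 15 members rising and 15 falling (62.3% of all genes rose and 23.7% fell). With cyclic loess, which shifted that median by -0.17, 13 rose and 19 fell (32.3% and 32.8% of all genes). Relative to the median of all genes, the median of the members at 120 ppm against air was -0.65 as deposited. Centring moves all genes of an array alike, so it cannot change this value. The value was -0.47 with quantile normalization repeated and -0.24 after cyclic loess. Without replicates 4 and 5 at 120 ppm, 13 members rose and 20 fell against air. Spike-in levels, the upper quartile and the average of 5 endothelial markers differed at this dose as well. That average was 8.90 to 9.41 at 120 ppm against 9.87 to 10.49 on all other arrays. Of the 5 markers 4 fell against air, while Cldn5 rose from a mean of 11.09 to 11.93 (all genes: 42.9% rose and 31.9% fell). The part of these measures in the split was not tested.

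**Figure D3:**
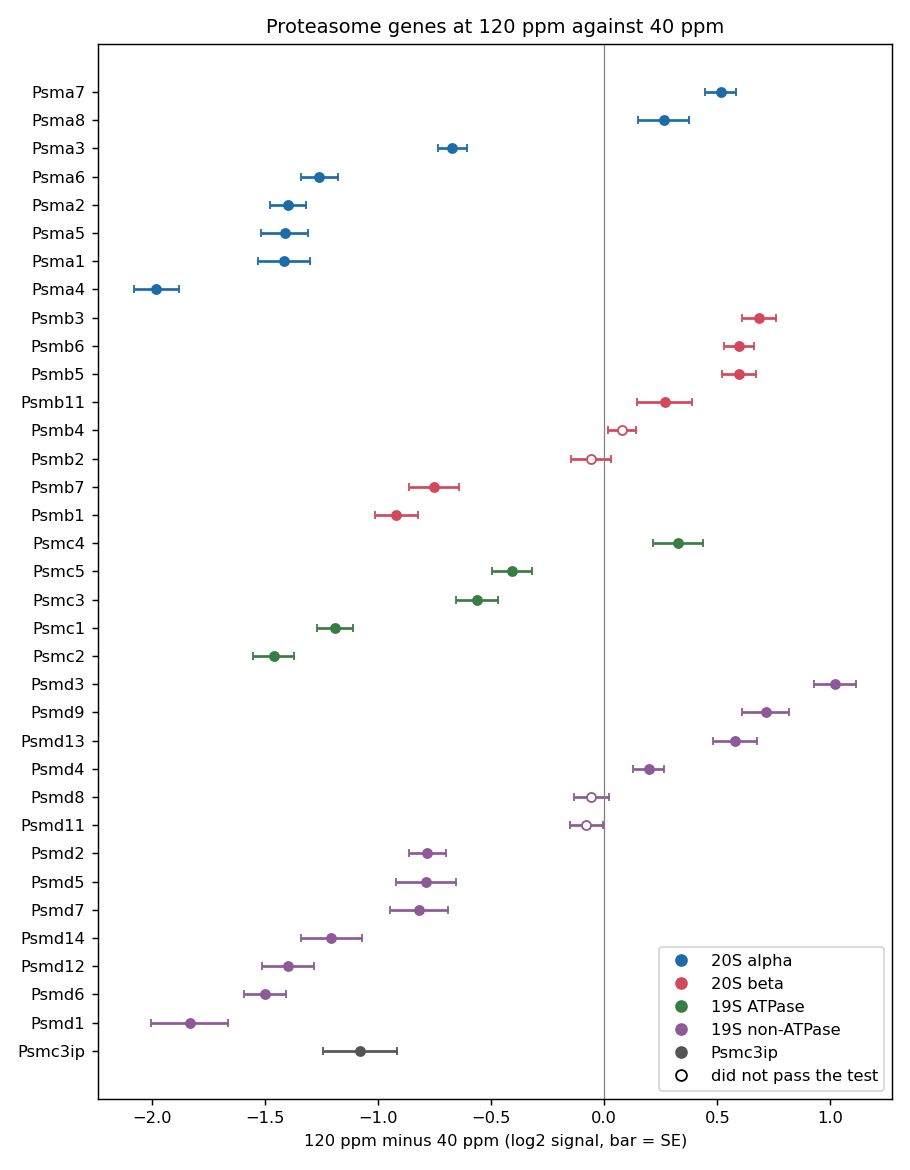
Difference between 120 and 40 ppm in log2 signal for each of the 35 genes, sorted within subunit class; points are limma estimates, bars 1 SE, colours the class, and open points did not pass an adjusted p of 0.05. Values run from -1.98 (Psma4) to 1.02 (Psmd3), and each of the 4 subunit classes holds genes on both sides of 0.

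Across the 32 measurable subunits, which are not independent replicates, the Pearson r of the step from 40 to 120 ppm with the difference between 20 and 0 ppm was -0.035. With the GC content of the promoter window it was -0.0472 over 26 genes and -0.052 over 13605 genes of the array. The rank correlation (Spearman) was 0.0928 with the difference between 20 and 0 ppm. With GC content it was -0.211 over the 26 genes and -0.0354 over the 13605 genes. These are descriptions only; the arrays at 120 and 40 ppm are shared by all points.

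The immunoproteasome genes were measured for comparison, and all 3 rose in the slope to 40 ppm and at 120 ppm. Psmb8, which replaces Psmb5 in cells exposed to interferon, had signals of 9.53, 9.14, 9.37, 9.02 and 9.42 at 0 ppm, 10.10, 10.21, 9.60, 9.99 and 10.01 at 5 ppm, 10.22, 10.27, 10.30, 9.95 and 10.30 at 10 ppm and 9.82, 9.50, 10.11, 9.74 and 10.04 at 40 ppm. At 120 ppm they were 10.55, 10.88, 10.78, 10.32 and 10.61. All 5 Psmb8 arrays at 5 ppm were above those in air, at a dose where no member of the standard proteasome had passed. Psmb9 (0.51, limma adjusted p = 0.0555) and Psmb10 (0.34, limma adjusted p = 0.127) did not pass at 5 ppm either. The difference between the groups of genes at 5 ppm was not tested. Psmb8 differed from air by 0.69 (SE 0.12, limma adjusted p = 0.000802) at 5 ppm, 0.91 (SE 0.12, limma adjusted p = 2.51e-06) at 10 ppm, 0.55 (SE 0.12, limma adjusted p = 0.00241) at 40 ppm and 1.34 (SE 0.12, limma adjusted p = 2.26e-11) at 120 ppm.

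Psmb9, the counterpart of Psmb6, had signals of 8.99, 8.54, 8.71, 8.51 and 8.79 at 0 ppm, 9.33, 9.12, 9.41, 8.88 and 9.35 at 10 ppm, 9.02, 8.59, 9.24, 8.87 and 9.26 at 40 ppm and 10.03, 10.39, 10.37, 9.63 and 9.89 at 120 ppm. Psmb10, the counterpart of Psmb7, had 10.15, 9.74, 9.76, 9.65 and 9.74 at 0 ppm, 10.23, 10.25, 10.40, 10.13 and 10.29 at 10 ppm, 10.04, 9.89, 10.34, 10.02 and 10.14 at 40 ppm and 11.02, 11.22, 11.06, 10.83 and 10.95 at 120 ppm. For both, arrays at 10 and 40 ppm overlapped air in part and all arrays at 120 ppm lay above every array in air and at 40 ppm. Psmb9 rose at 10 ppm by 0.51 (SE 0.14, limma adjusted p = 0.00991) and from 40 to 120 ppm by 1.06 (SE 0.14, limma adjusted p = 2.25e-08). Psmb10 rose at 10 ppm by 0.45 (SE 0.10, limma adjusted p = 0.00184) and from 40 to 120 ppm by 0.93 (SE 0.10, limma adjusted p = 7.33e-10), the step at which Psmb7 fell.

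**Figure D4:**
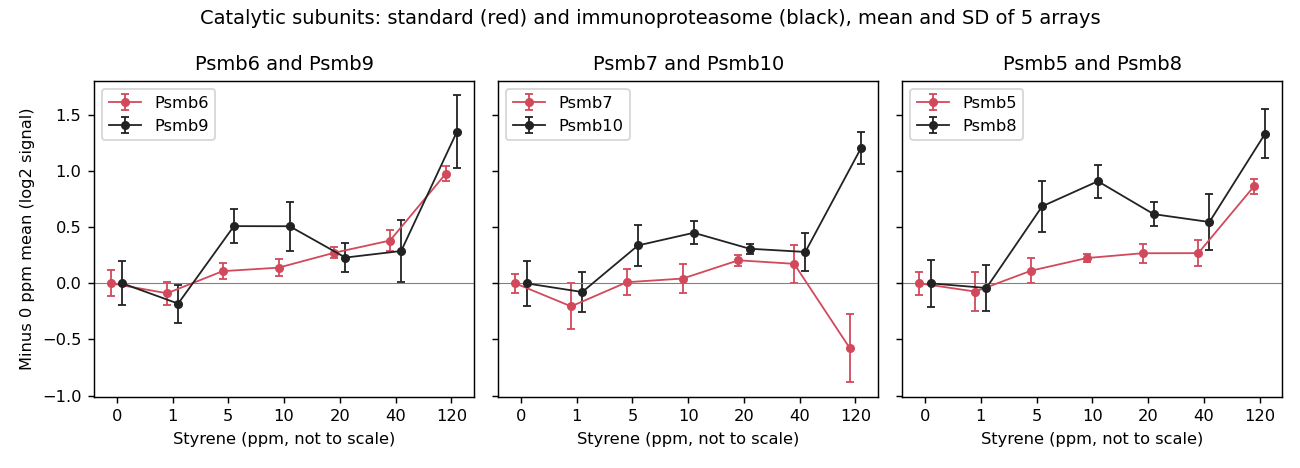
Mean log2 signal minus the mean at 0 ppm, with the SD of 5 arrays, against styrene dose in ppm (equal steps, not to scale) for each catalytic subunit (red) and its immunoproteasome counterpart (black). The immunoproteasome lines are higher at 5 and 10 ppm, and at 120 ppm Psmb7 (-0.58) and Psmb10 (1.21) lie on opposite sides of air; with arrays centred on their median Psmb7 was -0.185 and not called.

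Genes that work with the proteasome were read from lists of activators and assembly factors, shuttle factors and deubiquitinases, and the NRF1 and NRF2 routes. Of 11 measured activators, inhibitors and assembly factors (14 listed), 4 rose and none fell in the slope to 40 ppm, with a median of 0.028 (all genes: 13.2% rose and 12.9% fell). They were the 11S activators Psme1, Psme2 and Psme3 and the assembly chaperone Psmg4; Psme3, the nuclear activator, stood at 0.48 (SE 0.11, limma adjusted p = 0.00201) at 40 ppm and Psme2 at 0.29 (SE 0.088, limma adjusted p = 0.0248). From 40 to 120 ppm 3 of these 11 rose and 5 fell: the core assembly chaperone Psmg3 rose by 1.20 (SE 0.12, limma adjusted p = 5.37e-11), and its fellow chaperone Psmg2 fell by 1.52 (SE 0.097, limma adjusted p = 1.18e-14). Psmg2 averaged 6.45 at 120 ppm, below the highest nonspecific controls of those arrays (6.71 to 7.36), so its fall ends at background. Of 10 measured shuttle factors and deubiquitinases (12 listed), 2 rose and 1 fell in the slope, and 2 rose and 7 fell from 40 to 120 ppm (39.8% and 31.1% of all genes, 35.4% and 51.5% of genes as bright as the subunits). Of the 2 that rose at this step, Zfand5 exceeded the highest nonspecific control on 0 of 35 arrays and is not read as expression. Rad23b, which carries ubiquitinated proteins to the particle, differed from air by 0.49 (SE 0.096, limma adjusted p = 0.000576) at 40 ppm and from 40 to 120 ppm by -1.22 (SE 0.096, limma adjusted p = 9.02e-13). The proteasome-bound deubiquitinase Usp14 was at 0.54 (SE 0.18, limma adjusted p = 0.0469) at 20 ppm and fell by 1.51 (SE 0.18, limma adjusted p = 7.81e-09) from 40 to 120 ppm. At 120 ppm Rad23b averaged 7.23, within the range of the highest nonspecific controls, and Usp14 averaged 5.60, below it.

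Of 6 measured genes of the NRF1 route (7 listed), none rose or fell in the slope (limma, against 26% of all genes called in either direction). From 40 to 120 ppm 2 of the 6 rose and 3 fell (39.8% and 31.1% of all genes). Nfe2l1 itself, which encodes NRF1, did not pass in any comparison. Nfe2l1 differed from air by -0.14 at 20 ppm (limma adjusted p = 0.296) and 0.16 at 120 ppm (adjusted p = 0.0695), and NRF1 is regulated mainly as a protein, which arrays do not measure. Syvn1, a ubiquitin ligase that degrades NRF1 precursors, rose at 10 ppm by 0.65 (SE 0.16, limma adjusted p = 0.00627), and Ngly1, whose product processes NRF1, changed from 40 to 120 ppm by -1.81 (SE 0.18, limma adjusted p = 1.67e-10). Ngly1 averaged 5.94 at 120 ppm, below the highest nonspecific controls of those arrays, so its fall ends at background. Of 8 NRF2 target genes, 7 rose in the slope to 40 ppm, with a median of 0.12 per doubling against 0.047 for the proteasome genes; from 40 to 120 ppm none rose and 6 fell, against the shares of all genes given above. Txnrd1, thioredoxin reductase, stood at 0.61 (SE 0.098, limma adjusted p = 2.78e-05) at 20 ppm and fell by 1.04 (SE 0.098, limma adjusted p = 3.54e-11) from 40 to 120 ppm. Cell markers moved over the same doses: 4 of 4 measured club cell markers and 4 of 5 endothelial markers fell in the slope to 40 ppm. In that slope 4 of 4 markers of dividing cells rose (all genes: 13.2% rose and 12.9% fell). Their means were 4.21 to 4.96 in air and 5.54 to 6.23 at 20 ppm. Those in air lay below the highest nonspecific controls of the same arrays (5.90 to 6.34). Mki67 exceeded that control on 0 arrays, Top2a on 6, Birc5 on 9 and Cdk1 on 19. Mki67 is therefore not read as expression, and the rise of the other dividing-cell markers starts at background. The part of the cell markers in the proteasome results was not tested.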

How the data were processed

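RNA from whole mouse lungs was hybridised to 35 arrays, 5 per dose. The authors deposited 1 table of RMA signals on the log2 scale, made in Partek per the submitters' processing notes. That normalization sets the scale of every value used. No label names a plate or scan date, so no batch was tested. Genes and lists were chosen with earlier results of these data known.

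Of 45141 probe sets, 104 controls were left out, 28898 carried 1 gene symbol in the platform annotation, and the brightest of each gene was kept (17097 genes). For the 35 members these were chosen from 53 probe sets, with several in 11 genes; 2 more that also name another gene were left out. Each dose was compared with air, 120 with 40 ppm and 40 with 20 ppm in 1 limma fit over all groups (28 residual degrees of freedom), and the slope over 0 to 40 ppm was fitted on log2 of the dose plus 1 ppm. P-values were Benjamini-Hochberg adjusted over all 17097 genes, with 0.05 as the threshold. Genes named with full statistics were, in each class, the 3 with the smallest slope p and the highest and lowest at 120 against 40 ppm, plus the catalytic subunits, their immunoproteasome counterparts and the unmeasurable members; others were chosen after their values were seen. Alternatives changed the choice of probe set, filter, scaling, array weights, groups fitted, dose scale, replicate block and single arrays. Shares of all genes called are those of the main fit unless a scaling is named with them. The fits were tested on simulated data. The number of arrays limits the precision. R 4.3.3, limma 3.58.1, Python 3.11.15, pandas 2.3.3, scipy 1.17.1 and matplotlib 3.10.9 were used.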

Additional observations from a re-analysis of the deposited data

Results flagged for a closer look

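Single arrays that stood apart from the other 4 of their dose group were searched for in 266 combinations of gene and group, by the gap to the nearest array over the range of the group (above 0.71). 18 were found, and chance alone gives such a gap in about 1 in 20 groups. No explanation was tested.

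Among alpha subunits, Psma3 was low in replicate 3 at 10 ppm (10.95, others 11.07 to 11.08), Psma6 was low in replicate 1 at 10 ppm (10.59, others 10.68 to 10.69), Psma7 was high in replicate 1 in air (10.54, others 10.25 to 10.34), and Psma8, below background throughout, was high in replicate 5 in air (3.54, others 3.10 to 3.21). Psmb6 was high in replicate 5 at 20 ppm (10.58, others 10.45 to 10.49). Psmc3 was low in replicate 5 in air (10.05, others 10.20 to 10.25) and in replicate 2 at 20 ppm (10.17, others 10.29 to 10.33), and Psmc3ip was low in replicate 4 at 120 ppm (4.59, others 5.58 to 5.93). Among non-ATPase genes, Psmd7 was high in replicate 3 at 1 ppm (8.91, others 8.57 to 8.66), Psmd8 was high in replicate 2 at 5 ppm (10.52, others 10.36 to 10.39) and low in replicate 4 at 120 ppm (10.27, others 10.54 to 10.64), Psmd11 was high in replicate 5 at 120 ppm (9.81, others 9.38 to 9.50), and Psmd13 was low in replicate 5 at 40 ppm (8.22, others 8.47 to 8.55).

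The immunoproteasome genes gave 5 of the 18. In replicate 3 at 1 ppm all 3 were high: Psmb8 at 9.61 (others 9.11 to 9.22), Psmb9 at 8.83 (others 8.44 to 8.46) and Psmb10 at 10.04 (others 9.61 to 9.72). Psmb8 was low in replicate 4 at 10 ppm (9.95, others 10.22 to 10.30), and Psmb10 was high in replicate 1 in air (10.15, others 9.65 to 9.76).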

How the results depend on the processing

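For the 9 counts of rising or falling members above 0, 198 alternative values stayed within 1.5 times the main count and 27 did not; the other 9 counts were 0, and 2 of their alternative values were not. The count of 3 rising at 10 ppm became 1 with all probe sets tested singly and without both arrays of animal number 15, 5 with cyclic loess, 7 with array weights, and 1 to 2 without 1 array. The 8 rising at 20 ppm became 17 with array weights and 5 to 8 without 1 array (5 without replicate 5 in air); the 9 at 40 ppm became 15 with array weights. The 1 falling at 40 ppm (Psma1) became 0 with all probe sets, with the mean of probe sets, with only the compared groups fitted and without both 40 ppm replicates 4 and 5, and 0 to 1 without 1 array. Array weights gave 1 falling from 20 to 40 ppm (Psmd14). The 23 rising in the slope became 15 without 1 ppm and 15 up to 120 ppm, where 13 fell. Shares of all genes under the same settings were not set beside these counts, so a changed count is not read as particular to the members. The causes were not tested.

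Directions reversed for 16 values of single genes that were called. Of genes not called from 40 to 120 ppm, Psmd8 (-0.056) became 0.34 with centred arrays and 0.182 with cyclic loess, and Psmb2 (-0.058) became 0.339 and 0.187, all called higher. Centring arrays gave 0.004 for Psma3 and 0.086 for Psmc5 at 120 ppm against air. Cyclic loess gave -0.013 for Psma8 and -0.002 for Psmb11 against air, and -0.018 and -0.004 against 40 ppm; both genes are below background. A slope up to 120 ppm gave -0.008 for Psma3, -0.12 for Psma2, -0.029 for Psmb7, -0.03 for Psmc3, -0.013 for Psmc5, -0.024 for Psmc3ip, -0.033 for Psmd2, -0.085 for Psmd12, -0.066 for Psmd14 and -0.118 for Psmd6.

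The labels reuse replicate numbers 1 to 5 in each dose group, and nothing in them says that a number marks a shared animal or day. Of 105 same-numbered pairs 53 had a correlation of deviations over 0.1 (from -0.508 to 0.639, median 0.106 against -0.0327 for different numbers). Of 35 arrays, 13 correlated best with an array of their own number. By these medians same-numbered arrays were somewhat more alike, and why was not tested. The numbers were not taken as pairs because the labels do not name them so. With a replicate block 3 members rose at 10 ppm, 9 at 20 ppm, 10 at 40 ppm (1 fell) and 22 in the slope, and at 120 ppm 14 rose and 20 fell against air.

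Signals near or below the nonspecific controls at 120 ppm (Psmd1, Psmd12, Psmg2, Rad23b, Usp14, Ngly1, Nqo1, Srxn1, Slc7a11) limit what those genes can show. Array signals give no measure of protein or of proteasome activity.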

Other observations

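Several members had a further probe set that was left out of the main values. Against air at 120 ppm the second brightest gave 0.65 for Psma7, 1.26 for Psmb3, 0.70 for Psmc4 and 0.59 for Psmd4, in the direction of the main probe set in each of these 4 genes. For Psmd6 it gave -1.49, also in the main direction, but for Psmd11 it gave -0.14 where the main probe set gave 0.22.

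Averaged over the 32 subunits, the signals of single arrays lay between 9.73 and 9.82 in air, 9.56 and 9.73 at 1 ppm, 9.83 and 9.93 at 10 ppm, 9.92 and 10.01 at 20 ppm, 9.83 and 10.01 at 40 ppm and 9.32 and 9.58 at 120 ppm. The arrays at 20 ppm all lay above those in air, and those at 120 ppm lay below every array of the other groups, except that replicate 5 was above 1 array at 1 ppm.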
